A study of Mus musculus with 6 samples.

Results

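Plasminogen activators, the receptor that holds one of them on the cell surface, and genes set against them were examined in PPARγ2 K382Q- and PPARγ2 K382R-overexpressing cells. The 9 members were the rows of the deposited tables that carry the gene names *Plat*, *Plau*, *Plaur*, *Serpine2*, *Serpinb2*, *Serpinf1*, *Serpinf2*, *Thbd* and *F3*, among 56884 gene IDs in all. They do not cover every inhibitor of the system. The name also reaches wider than its words, since *Serpinf1* encodes a serpin that inhibits no protease, and *Thbd* and *F3* act on coagulation.

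RNA was sequenced from a mouse stromal vascular fraction (SVF) cell line of subcutaneous white adipose tissue (scWAT), a culture that holds adipocyte precursors. Stable lines were made with a puromycin-selected retroviral vector that expressed HA-tagged PPARγ2, the master transcription factor of fat cell formation. No untransduced or wild-type PPARγ2 group was analysed here. In the K382Q group the lysine was replaced by glutamine, which resembles acetylated lysine. In the K382R group it was replaced by arginine, which keeps the charge of the unmodified residue. Both groups were taken at day 2 of beige differentiation, in medium with isobutylmethylxanthine, indomethacin, dexamethasone, insulin, T3 and rosiglitazone, a PPARγ agonist. There were 3 libraries of each group, labelled as biological replicates. Nothing in the labels says that they came from separately made lines, so each p-value measures the spread between these samples, which may be partly technical. The question was how the acetylation-mimicking and the deacetylation-mimicking mutant differ early in differentiation.

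Plasminogen is made by the liver and circulates as an inactive precursor. Tissue-type plasminogen activator (*Plat*) and urokinase (*Plau*) cut it to plasmin, which dissolves fibrin and degrades matrix proteins. Urokinase acts mainly at the cell surface, where its receptor (*Plaur*) binds it. Serpins restrain the system by trapping the activators or plasmin itself. Thrombomodulin (*Thbd*) and tissue factor (*F3*) stand at the coagulation side, where fibrin is made. In adipose tissue these proteases take part in matrix turnover while precursors round up and fill with lipid.

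*Plau*, *Plat* and *Plaur* were lower in PPARγ2 K382Q-overexpressing cells, each by more than 2-fold. Of the inhibitors among the members, *Serpine2* was lower by a much smaller amount, and 2 serpins were at or near 0. *Serpinf1* and *Thbd* were lower by amounts close to the shift of the median gene, and *F3* was not separated between the mutants. Values are TPM, a length-corrected share of all transcripts in a library, so levels can be compared between genes but give no absolute amounts. The groups were compared with limma on log2(TPM + 0.5), with Benjamini-Hochberg adjustment over the 15426 genes tested, and fold changes are on that scale, which understates the change of low genes. A called gene had an adjusted p under 0.05, and a fold change over 2 is stated where it was also met. In bulk RNA, fewer cells of a type and less RNA per cell cannot be told apart.

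The promoters of 4 members are shown because they let the gene that fell by more than 2-fold be set beside 3 that did not. *Plaur* was the gene of that kind for which the RefSeq table of mouse promoters had an entry. The table covered 6 of the 9 members (*F3*, *Plaur*, *Serpinb2*, *Serpine2*, *Serpinf1* and *Serpinf2*). The comparison promoters of *Serpine2*, *Serpinf1* and *F3* were chosen after the values were seen. Each sequence is 300 bases of GRCm38.p6 from RefSeq, written 5′ to 3′ along the gene's strand and spanning the start, with 50 of its bases after it. Capitals mark matches, on either strand, to a TATA box (TATAAA), a GC box (GGGCGG, the letters bound by Sp1), an AP-1 site (TGANTCA) or a nuclear receptor half-site (AGGTCA, the unit that PPARγ with its partner RXR binds as a pair).
Plaur: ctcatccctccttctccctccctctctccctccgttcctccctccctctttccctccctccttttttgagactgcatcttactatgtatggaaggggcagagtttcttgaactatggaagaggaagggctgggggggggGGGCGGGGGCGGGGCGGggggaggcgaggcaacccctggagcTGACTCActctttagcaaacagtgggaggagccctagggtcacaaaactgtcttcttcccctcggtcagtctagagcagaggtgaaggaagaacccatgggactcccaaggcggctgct
Serpine2: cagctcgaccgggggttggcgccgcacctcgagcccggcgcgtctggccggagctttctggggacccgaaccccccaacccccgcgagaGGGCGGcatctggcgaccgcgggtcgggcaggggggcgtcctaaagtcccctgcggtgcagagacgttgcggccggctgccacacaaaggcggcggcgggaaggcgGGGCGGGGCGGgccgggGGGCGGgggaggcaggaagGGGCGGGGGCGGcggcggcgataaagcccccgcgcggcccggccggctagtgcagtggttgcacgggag
Serpinf1: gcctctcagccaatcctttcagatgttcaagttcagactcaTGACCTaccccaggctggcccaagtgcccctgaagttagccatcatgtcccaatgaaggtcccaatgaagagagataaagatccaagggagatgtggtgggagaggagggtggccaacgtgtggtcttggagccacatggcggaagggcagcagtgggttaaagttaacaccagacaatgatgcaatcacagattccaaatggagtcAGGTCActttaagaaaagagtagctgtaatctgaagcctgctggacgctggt
F3: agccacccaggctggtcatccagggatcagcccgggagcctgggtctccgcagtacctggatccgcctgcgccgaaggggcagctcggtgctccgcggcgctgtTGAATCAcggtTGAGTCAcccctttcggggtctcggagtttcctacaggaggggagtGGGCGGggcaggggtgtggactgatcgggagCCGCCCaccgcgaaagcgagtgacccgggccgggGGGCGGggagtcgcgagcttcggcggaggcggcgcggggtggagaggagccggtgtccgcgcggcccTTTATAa
The windows are chr7:24462233-24462532 on the plus strand for *Plaur*, chr1:79858616-79858915 on the minus strand for *Serpine2*, chr11:75422574-75422873 on the minus strand for *Serpinf1* and chr3:121723287-121723586 on the plus strand for *F3*.

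The *Plaur* window held 3 GC boxes in a row, beginning at -111, -105 and -100 from the start, and an AP-1 match (TGACTCA) at -69. The GC boxes at -105 and -100 share a base. The *F3* window held AP-1 matches at -146 and -135 together with 3 GC boxes and a TATA match on the minus strand at 44. *Serpine2* had 6 GC boxes and no other match, and 77.7% of its bases were G or C. *Serpinf1* was the only window of the 4 with half-sites, at -209 on the minus strand and at -2. Among all 32544 RefSeq promoter windows of this length, 7.79% held the AP-1 letters, 35.9% a GC box, 16.2% the half-site and 13.6% a TATA box. A palindromic cAMP response element (TGACGTCA) was in 1.8% of all windows and in none of the 6 members' windows. AP-1 letters were thus present both in a gene called lower and in *F3*, which was not called. The windows of *Serpinb2*, which was listed at 0 TPM in every library, held them as well. A match is a string of letters and not evidence of binding.

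*Plat* encodes tissue-type plasminogen activator, the secreted protease best known for dissolving clots. It lies at chr8:23247743-23272860 on the plus strand of GRCm39, and its canonical transcript has 14 exons. Its level was 5.05, 6.24 and 4.42 TPM in the 3 PPARγ2 K382Q libraries and 13.7, 13.3 and 13.8 TPM in the 3 PPARγ2 K382R libraries. Every K382Q library lay below every K382R library, and the spread was wider in K382Q (SD 0.921) than in K382R (SD 0.235, n = 3 each). The log2 fold change was -1.31 ± 0.11 (SE), with an adjusted p of 6.52e-05 by limma. The mean was 2.60-fold higher in K382R, and the 95% confidence interval of the log2 fold change ran from -1.57 to -1.04.

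*Plau* encodes urokinase, the activator that works at the surface of migrating cells. It lies at chr14:20886728-20893453 on the plus strand. It stood at 2.38, 2.84 and 2.24 TPM in K382Q and at 7.95, 8.44 and 8.37 TPM in K382R, again without overlap. This was the largest fold change among the tested members, with a log2 fold change of -1.56 ± 0.10 (SE, adjusted p = 1.74e-05, limma) and a K382R mean 3.32 times the K382Q mean. A lncRNA on the opposite strand, *Gm63115*, shares exon bases with *Plau* in GENCODE mouse release 39 and has no row in the deposited tables. Whether strand was used in the quantification is not given in the sources used here, so reads of both might not have been told apart.

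*Plaur* encodes the urokinase receptor, a protein held in the membrane by a lipid anchor. It lies at chr7:24161909-24175393 on the plus strand. It was measured at 13.3, 14.5 and 13.8 TPM in K382Q and at 33.6, 33.9 and 31.8 TPM in K382R. The groups were far apart against their spread (SD 0.626 in K382Q), and the log2 fold change was -1.23 ± 0.05 (SE, adjusted p = 2.74e-06, limma). *Plaur* had the lowest adjusted p of the members, and its mean was 2.39-fold higher in K382R.

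**Figure D1:**
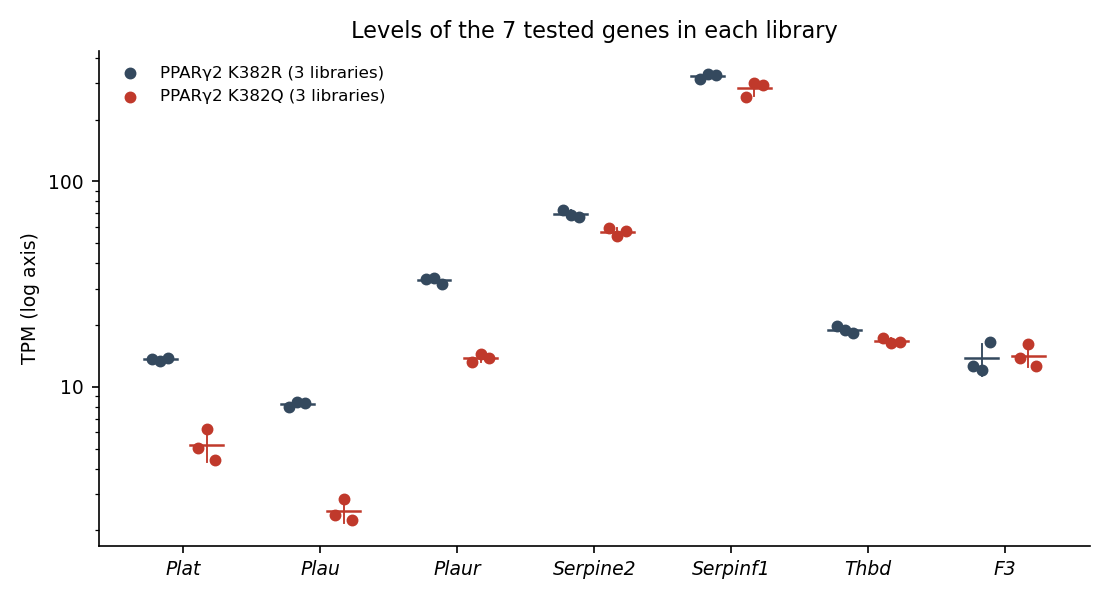
Each point is the TPM of one library on a log axis for the 7 tested genes, with K382R libraries in dark grey and K382Q libraries in red. Horizontal lines are means and vertical lines are SDs of 3 libraries. *Plat*, *Plau* and *Plaur* stand clearly apart between the mutants, while *F3* overlaps. *Serpinf2* (at most 0.197 TPM) and *Serpinb2* (0 in every library) are not drawn.

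*Serpine2*, protease nexin-1, inhibits thrombin, urokinase and plasmin in the pericellular space. It lies at chr1:79771914-79838897 on the minus strand. Its levels were 59.0, 54.0 and 57.3 TPM in K382Q and 72.5, 68.8 and 67.4 TPM in K382R. No library of one group reached the range of the other, but the distance was small, with a log2 fold change of -0.29 ± 0.05 (SE, adjusted p = 1.35e-03, limma). Relative to the median of all tested genes, the change was -0.16. After quantile normalization it was -0.13 with an adjusted p of 0.0547, so the call was lost there.

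*Serpinb2* encodes the inhibitor of urokinase known as plasminogen activator inhibitor type 2, found mainly in macrophages and keratinocytes. It was listed at 0 TPM in all 6 libraries. *Serpinf2* encodes α2-antiplasmin, the main plasma inhibitor of plasmin, which the liver makes. It was listed at 0.0722, 0.130 and 0.0844 TPM in K382Q and at 0.197, 0 and 0.181 TPM in K382R, with a read depth of at most 0.559 per base. These values overlap and were too low to enter the test. With no filter on low values the log2 fold change was -0.06 with an adjusted p of 0.829 (limma). These 2 members were thus not detectable or barely so at this depth, and *Serpine2* was the protease-inhibiting serpin among the members with a substantial level.

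*Serpinf1*, pigment epithelium-derived factor, lies 9030 bases from *Serpinf2* on chromosome 11, at chr11:75300595-75313527 on the minus strand. It is a secreted serpin released by fat cells and their precursors, and it was the most abundant member. It was measured at 258, 302 and 295 TPM in K382Q and at 314, 334 and 329 TPM in K382R. The groups did not overlap, although the highest K382Q library was close to the lowest K382R library. The log2 fold change was -0.19 ± 0.06 (SE, adjusted p = 0.0295, limma). The call was lost with the median-ratio scaling (log2 fold change -0.04, adjusted p = 0.645), and also without K382R replicate 2 (adjusted p = 0.0886) or replicate 3 (adjusted p = 0.0785). Without K382Q replicate 1, its lowest library, the log2 fold change was -0.12 with an adjusted p of 0.0252. *Smyd4* on the opposite strand shares exon bases with it and stood at 11.5 to 12.3 TPM.

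*Thbd* encodes thrombomodulin, the receptor that turns thrombin from making fibrin to activating protein C. It is a gene of 1 exon in its canonical transcript, at chr2:148246386-148250108 on the minus strand. It was at 17.3, 16.4 and 16.6 TPM in K382Q and at 19.8, 18.9 and 18.2 TPM in K382R, narrowly without overlap. The log2 fold change was -0.17 ± 0.05 (SE, adjusted p = 0.0301, limma). It was lost with the median-ratio scaling (-0.03, adjusted p = 0.728) and without any of 4 libraries. The adjusted p was then 0.0803 without K382Q replicate 2, 0.0799 without K382Q replicate 3, 0.103 without K382R replicate 1 and 0.0749 without K382R replicate 2.

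*F3* encodes tissue factor, the membrane protein that starts coagulation. It lies at chr3:121517186-121528697 on the plus strand. Its levels were 13.8, 16.1 and 12.7 TPM in K382Q and 12.6, 12.1 and 16.6 TPM in K382R, so the groups overlapped and the highest and lowest libraries were both of K382R. The log2 fold change was 0.05 ± 0.13 (SE, adjusted p = 0.78, limma), with a 95% confidence interval from -0.25 to 0.36. A change of 2-fold in either direction lies outside that interval. The sign turned without K382Q replicate 2 (-0.04), K382R replicate 1 (-0.0028) or K382R replicate 2 (-0.03).

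Of the 7 members tested, 6 were called lower in K382Q, where 36.9% of all 15426 genes were called lower and 11.1% higher. With a fold change over 2, 3 members were called lower (*Plat*, *Plau* and *Plaur*), beside 2.61% of all genes, while 1.27% of all genes were higher by that rule. The excess of lower over higher genes by that rule (403 against 196) depended on the scaling, with 297 against 287 after median-ratio scaling and 306 against 277 after quantile normalization. All 3 K382Q libraries lay below all 3 K382R libraries in 6 members, as they did in 42.8% of all genes tested. The count of 6 includes changes of a size that many genes showed. *Plat*, *Plau* and *Plaur* were at the 1.23, 0.674 and 1.49 percentiles of the log2 fold changes of all genes, *Serpine2* at the 28.6 percentile, and *Serpinf1*, *Thbd* and *F3* at the 41.7, 44.6 and 72.7 percentiles. The median log2 fold change was -0.29 over the 7 tested members and -0.135 over all genes tested, so a gene at 0 lies above the median gene. Median-ratio scaling moved the latter to 0.0034. Measured from the median of all genes, the log2 fold changes were -1.17 for *Plat*, -1.42 for *Plau*, -1.09 for *Plaur*, -0.16 for *Serpine2*, -0.06 for *Serpinf1*, -0.04 for *Thbd* and 0.19 for *F3*.

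**Figure D2:**
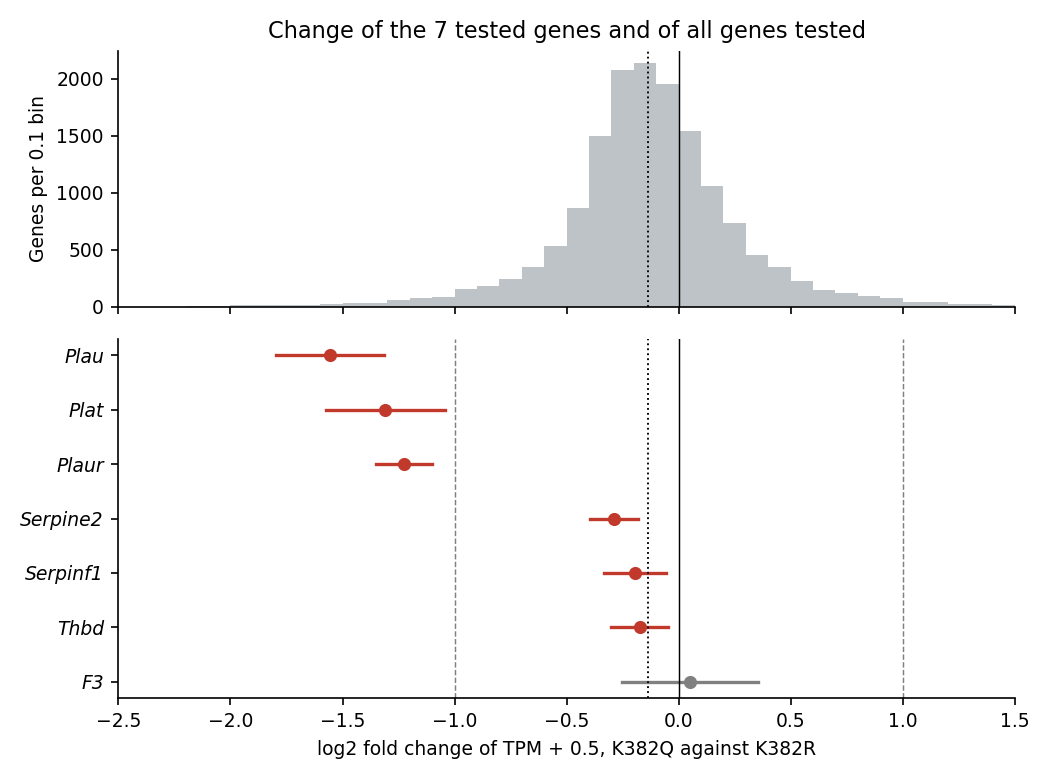
The upper panel counts the tested genes by log2 fold change in bins of 0.1 and shows the range from -2.5 to 1.5, beyond which a small number of the 15426 genes lie. The lower panel gives the log2 fold change of each tested member with its 95% confidence interval, in red where it was called and in grey where it was not. The dotted line is the median of all genes (-0.135) and dashed lines mark a 2-fold change. *Plau*, *Plat* and *Plaur* lie in the lower tail, and the other 4 lie within the bulk of genes.

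The order of levels also differed between the mutants. In K382R the order by mean TPM was *Serpinf1* (325.7), *Serpine2* (69.5), *Plaur* (33.1), *Thbd* (19.0), *F3* (13.8), *Plat* (13.6) and *Plau* (8.25), where *F3* and *Plat* were not separated beyond their ranges. In K382Q, *Plaur* (mean 13.9 TPM) had moved below *Thbd* (16.7 TPM) and overlapped *F3* (14.2 TPM). *Plat* (5.24 TPM) and *Plau* (2.49 TPM) were the lowest of the 7 in K382Q. *Serpinf2* and *Serpinb2* stood last in both groups.

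The members were also set against each other within each library. A ratio within a library is the same under any scaling by 1 factor per library, though not under quantile normalization. The summed TPM, which is not a ratio and moves with the scaling, was 7.43, 9.08 and 6.66 for both activators in K382Q and 21.6, 21.8 and 22.2 in K382R. Set against *Serpine2*, the activator sum came to 0.126, 0.168 and 0.116 of its level in K382Q and to 0.298, 0.317 and 0.329 in K382R. The activators were thus lower than *Serpine2* in every library, and their ratio to it was lower in K382Q. *Plaur* over *Serpine2* was 0.225, 0.269 and 0.241 in K382Q and 0.464, 0.493 and 0.472 in K382R, with the same pattern. The activators were also set against each other, and their fold changes had overlapping confidence intervals. *Plat* over *Plau* was 2.13, 2.19 and 1.98 in K382Q and 1.72, 1.58 and 1.65 in K382R. *Plaur* over *Plau* was 5.58, 5.11 and 6.17 in K382Q and 4.23, 4.02 and 3.80 in K382R, with the higher values in K382Q. None of these values overlapped between the mutants. The exact two-sided permutation p was 0.1 for each, which is the smallest that 3 against 3 libraries allow, and 0.14 after Benjamini-Hochberg adjustment over the 7 quantities tested. *Thbd* over *F3* overlapped, with 1.25, 1.02 and 1.31 in K382Q and 1.57, 1.57 and 1.10 in K382R (exact permutation p = 0.3, adjusted 0.35). *Serpinf1* over *Serpine2* overlapped as well, with means of 5.04 and 4.69 (exact permutation p = 0.4).

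**Figure D3:**
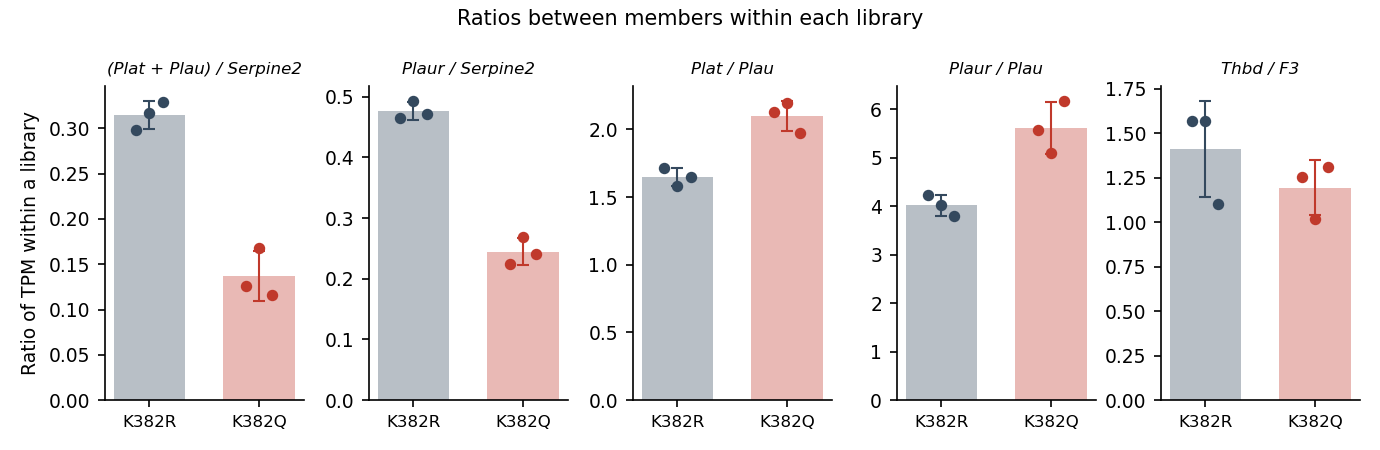
Each panel shows a ratio of TPM values within a library, with points for the 3 libraries, bars for their mean and error bars for the SD, all from 0. The activator sum and *Plaur* relative to *Serpine2* are lower in K382Q (means 0.137 and 0.245) than in K382R (0.315 and 0.476), *Plat* and *Plaur* relative to *Plau* are higher, and *Thbd* relative to *F3* overlaps.

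The 3 members over 2-fold kept their direction, their call and a fold change over 2 in all 15 alternative settings. Their log2 fold changes ran from -1.43 to -1.13 for *Plat*, from -1.70 to -1.28 for *Plau* and from -1.26 to -1.06 for *Plaur*. *Serpine2*, *Serpinf1* and *Thbd* stayed below 0 in all of them and kept the call in 14, 8 and 8 of 15. *F3* was called in none of them, and its adjusted p ran from 0.201 to 0.991.

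**Figure D4:**
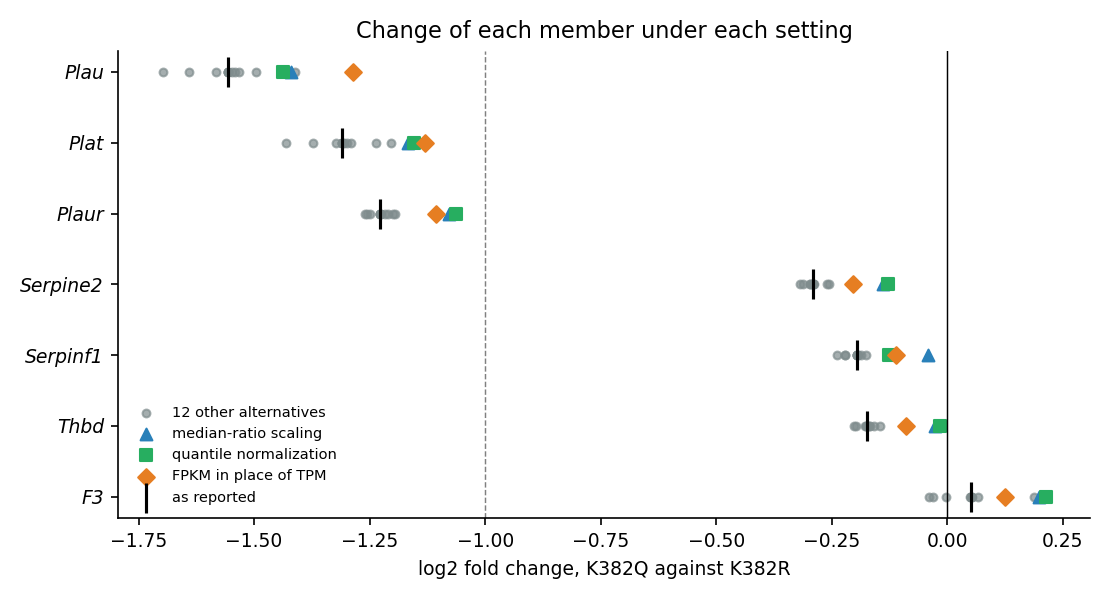
The log2 fold change of each tested member is plotted as reported (black line) and under 15 alternatives, of which 3 that rescale the values have their own symbols. *Plau*, *Plat* and *Plaur* lie beyond the dashed line of a 2-fold change throughout, *Serpine2*, *Serpinf1* and *Thbd* approach 0 with the scalings, and *F3* lies on both sides of 0, below it only with single libraries left out.

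Deviations within the K382Q group were partly shared by the members. K382Q replicate 2 had the highest value of its group for *Plat*, *Plau*, *Plaur*, *Serpinf1* and *F3*, and the lowest for *Serpine2* and *Thbd*. That library also held 7.5 Gb of aligned reads, against 5.96 and 5.95 Gb in the others of its group. The part of depth in these values was not tested. Read depth per base of exon over the 6 libraries was 4.40 to 17.3 for *Plat*, 5.41 to 26.6 for *Plau*, 18.5 to 62.3 for *Plaur*, 37.4 to 58.4 for *Serpine2*, 487 to 813 for *Serpinf1*, 40.5 to 60.3 for *Thbd* and 22.8 to 36.1 for *F3*. In every library this depth was lowest for *Plat* and *Plau* among the 7.

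The substrate, receptors and clearance genes of the plasminogen system came from a list of 20 other genes, of which 10 were tested. In K382Q, 7 of them were called lower and 2 higher, where 36.9% of all genes were called lower and 11.1% higher. Their median log2 fold change was -0.361 against -0.135 over all genes. *Plg*, plasminogen itself, was listed at 0 in every library, so no transcript of the activators' substrate was listed. One of the called genes, *Fgg*, a fibrinogen chain with means of 0.168 and 0.726 TPM, entered the test only through the K382R libraries. Plasminogen receptors were present and did not move as 1 group. *Anxa2*, annexin A2, which with S100A10 holds plasminogen and *Plat* at the surface, had 2193, 2184 and 2148 TPM in K382Q and 2616, 2620 and 2602 TPM in K382R (log2 fold change -0.26, adjusted p = 1.34e-04, limma). Its size depended on the scaling, with -0.11 after median-ratio scaling and -0.54 after quantile normalization, both called. *S100a10*, its partner, had means of 843 and 971 TPM (log2 fold change -0.20, adjusted p = 1.37e-03), and with the median-ratio scaling its adjusted p was 0.259. *Plgrkt*, a plasminogen receptor that spans the membrane, had means of 75.0 and 99.0 TPM (-0.40, adjusted p = 2.16e-04), and its change was -0.25 after either median-ratio scaling or quantile normalization, still called. *Eno1*, enolase 1, a glycolytic enzyme that also binds plasminogen at the surface, was called higher, with means of 1165 and 874.7 TPM (0.41, adjusted p = 2.21e-05).

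*Lrp1*, the endocytic receptor that clears activators bound to their inhibitors, was at 64.7, 64.8 and 63.9 TPM in K382Q and at 99.7, 104.7 and 105 TPM in K382R. It was called lower (log2 fold change -0.67, adjusted p = 4.45e-06, limma). *Vldlr*, a related receptor that also takes up triglyceride-rich lipoproteins, was the gene called higher by more than 2-fold. Its levels were 95.5, 90.2 and 88.1 TPM in K382Q and 44.5, 46.0 and 41.4 TPM in K382R (log2 fold change 1.05, adjusted p = 4.12e-06). *Lrp1* and *Vldlr* therefore moved in opposite directions. *Fga*, 1 of the fibrinogen chains, was lower, at 13.2, 12.2 and 10.7 TPM against 32.2, 31.0 and 32.8 TPM (log2 fold change -1.38, adjusted p = 7.08e-06). The transcripts of the other chains, *Fgb* and *Fgg*, were at or near 0.

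Of 24 other genes of coagulation and thrombin signalling, 10 were tested. In K382Q, 5 of these were called lower and 5 were not called, which is near the 36.9% of all genes called lower. Their median log2 fold change was -0.257 against -0.135 over all genes. *Pros1*, protein S, which assists activated protein C and so acts on the same side as *Thbd*, was the gene called with a fold change over 2. It had 11.1, 9.11 and 9.37 TPM in K382Q and 28.9, 29.2 and 31.4 TPM in K382R (log2 fold change -1.55, adjusted p = 5.43e-06, limma). *Procr*, the protein C receptor, had means of 5.26 and 6.47 TPM and was not called (-0.27, adjusted p = 0.0884).

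**Figure D5:**
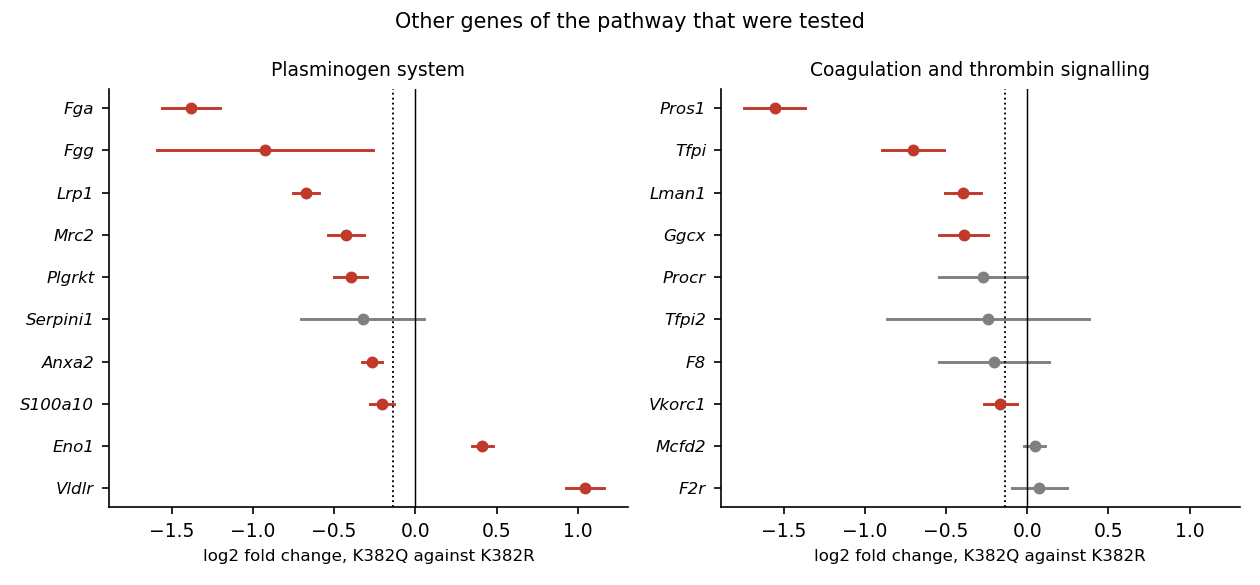
Log2 fold changes with 95% confidence intervals are shown for the 10 tested genes of each of the plasminogen and coagulation lists, in red where called and grey where not, with the median of all genes dotted. *Fga* and *Pros1* lie below -1 and *Vldlr* lies at 1.05.

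The tables held 66 other genes whose names begin with Serpin, and 23 were tested. In K382Q 18 of these were called lower and 5 were not called, and 8 fell by more than 2-fold, beside 36.9% and 2.61% of all genes. With a filter of 1 TPM in at least 3 libraries, 16 were called lower. Their median log2 fold change was -0.858 against -0.135 over all genes. The 6 largest changes were in *Serpinb9b* (-2.17), *Serpinb1a* (-1.84), *Serpina3g* (-1.64), *Serpinb9g* (-1.62), *Serpina3n* (-1.58) and *Serpinb9e* (-1.20), each called by limma. *Serpina3n*, a secreted inhibitor of neutrophil-type proteases and the most abundant of them, was at 30.0, 29.0 and 25.2 TPM in K382Q and at 83.3, 83.4 and 87.0 TPM in K382R. *Serpinb9* genes are relatives of the intracellular granzyme B inhibitor. They and the *Serpina3* genes sit in clusters of near-identical copies, so reads may be split among them and single values are uncertain. The counts of Serpin genes may therefore hold entries that are not independent. *Serpine2* and *Serpinf1*, with -0.29 and -0.19, moved less than the median of these relatives.

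Markers of cell types were read beside these results. *Pparg*, which includes the introduced transcript, was at 1104 to 1333 TPM in K382Q and at 1590 to 1632 TPM in K382R. These ranges did not overlap, so the level of *Pparg* RNA differed along with the mutant. Its part in the changes of the members was not tested. The summed TPM of 6 adipocyte markers was 51170 to 55000 in K382Q and 42100 to 43290 in K382R, with *Fabp4* making up most of it. Within this list 3 genes were called lower (*Adipoq*, *Cebpa* and *Lpl*) and 2 higher (*Fabp4* and *Cd36*). The log2 fold changes were -1.28, -0.81 and -0.19 for the former and 0.34 and 0.43 for the latter. Of 6 adipose progenitor markers, 4 were tested and all 4 were called lower (*Pdgfra*, *Pdgfrb*, *Ly6a* and *Thy1*), and their list summed to 463 to 509 TPM in K382Q and 774 to 811 TPM in K382R, nearly all of it *Ly6a*. Smooth muscle markers summed to 1.96 to 2.23 TPM in K382Q and to 15.4 to 18.0 TPM in K382R, with *Acta2* and *Tagln* called lower. Most of that sum in K382R was *Acta2* (mean 0.764 TPM in K382Q and 13.2 TPM in K382R), while *Myh11* was below the filter with means of 0.408 and 0.416 TPM. The called progenitor and smooth muscle markers thus moved in the direction of *Plat*, *Plau* and *Plaur*, and their part in those changes was not tested. The 4 mesothelial markers summed to 374 to 398 TPM in K382Q and to 416 to 428 TPM in K382R, nearly all of it *Krt19*, whose log2 fold change of -0.12 was close to that of the median gene. *Msln* was also called lower, but it entered the test only through the K382R libraries (means of 0.233 and 1.67 TPM).

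Markers of endothelial cells, where *Thbd* is best known, and of leukocytes had few transcripts. The 6 endothelial markers summed to 1.63 to 2.25 TPM in K382Q and to 1.69 to 1.82 TPM in K382R, 5 of them were under 1 TPM in all libraries, and *Emcn* was at 0. The 6 leukocyte markers summed to at most 0.177 TPM, with *Adgre1* and *Cd3e* at 0 throughout. Of 3 genes that mark brown rather than beige fat cells, *Zic1* and *Meox1* were at 0 in every library and *Lhx8* was called lower (log2 fold change -1.12, adjusted p = 1.81e-03, limma).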

How the data were processed

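Gene abundance tables of 6 libraries were analysed, 3 of PPARγ2 K382Q- and 3 of PPARγ2 K382R-overexpressing cells. A NEBNext Ultra kit was used for the libraries. The authors trimmed reads with TrimGalore 0.6.7, used HISAT2 2.2.1 for alignment to GRCm39, sorted the output (SAMtools 1.14) and estimated gene abundance in StringTie 2.2.1, as the paper and the submitters' processing notes state. The annotation release is not given in the sources used here. The TPM that the authors deposited sums to a constant in each library. The FPKM deposited beside it is scaled to aligned bases, and the coverage deposited is the mean read depth per base, not normalized. Read counts were not analysed here, so no counting interval is given. Aligned bases were taken as the highest ratio of coverage to FPKM in a library (5.95 to 8.15 Gb).

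Entries that shared a gene ID were summed. Genes that reached 0.5 TPM in 3 or more libraries (15426) were fitted with limma 3.58.1 (R 4.3.3). The fit used log2(TPM + 0.5), a variance trend with intensity and Benjamini-Hochberg adjustment, and the threshold was an adjusted p of 0.05, with and without a fold change over 2. The script was tested on simulated data. Gene structure came from GENCODE mouse release M39 and promoters from RefSeq. Tables and plots were made in Python 3.11.15 (numpy 2.4.6, matplotlib 3.10.9, pandas 2.3.3). Named genes are the 9 members, up to 6 genes per other list that were called with a fold change over 2, *Plg*, *Anxa2*, *S100a10*, *Plgrkt* and *Lrp1*, and marker genes. *Pparg*, *Smyd4*, *Eno1*, *Fgb*, *Fgg* and *Procr* were added after their values were seen. The members and lists were chosen with earlier results of these data known. Results for some single genes of the pathway are not reported here. No pair of libraries shared more than 0.0583% identical values.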

Additional observations from a re-analysis of the deposited data

How the results depend on the processing

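Besides leaving out each of the 6 libraries, the choices varied were the pseudocount (1 or 0.1), the filter (none, or 1 TPM), the unit (FPKM), the scaling (quantile or median-ratio), the variance trend (none) and a block for the replicate number. The count of members with a fold change over 2 was 3 in all 15. The count of members called lower was 4 with FPKM, 4 with median-ratio scaling and 3 with quantile normalization, against 6 as reported, and leaving out single libraries gave 4 to 6. The lowest of these came without K382R replicate 2. *Serpinf1* also lost its call with no filter (adjusted p = 0.101), with FPKM (0.176), with quantile normalization (0.116) and with no trend (0.0791, all limma), and *Thbd* with FPKM (0.229) and quantile normalization (0.843). Other genes of the pathway called higher were 2 as reported, 3 with no filter, 3 with FPKM, 4 with median-ratio scaling and 4 with quantile normalization. Other Serpin genes called higher were 1 with median-ratio scaling. The log2 fold change of *F3* ran from -0.040 to 0.19 with single libraries left out, where it was negative in 3 of 6. The cause was not tested, beyond the shift of the median gene that the scalings remove.

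Replicate numbers are shared by the groups, but same-numbered libraries did not deviate together (correlations of -0.0177, 0.0507 and 0.0223). These correlations cannot show whether same-numbered cultures were handled together. With the replicate block, 6 members were called lower, 3 of them with a fold change over 2, and over all genes 407 were lower and 197 higher by that rule, against 403 and 196 without it. *Thbd* then had an adjusted p of 0.0482. The lack of counts limits what can be said of *Serpinf2* and *Serpinb2*, and with 3 libraries per group small changes such as those of *Serpinf1* and *Thbd* rest on single libraries and on the scaling.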
